A study of Mus musculus with 67 samples.

Results

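Integrins are surface receptors made of one alpha and one beta chain, and T cells use them to stop on the blood vessel wall, to cross it and to move through tissue. The 9 integrin genes described here are Itga4 with its beta partners Itgb1 and Itgb7, Itgal with Itgb2, Itgav with its partners Itgb3 and Itgb8, and Itga6. The alpha4 chain, encoded by Itga4, pairs with beta1 to bind VCAM-1 and fibronectin, and with beta7 to bind MAdCAM-1, a vessel ligand best known from the gut. Antibodies that block alpha4 keep T cells out of the inflamed brain. Itgal and Itgb2 encode the 2 chains of LFA-1, which binds ICAM-1, alphav with beta8 releases active TGF-beta from its latent complex, and alpha6 binds laminin of the vascular basement membrane. A beta chain that several alpha chains share can limit which receptors a cell builds, so the levels of the partners bear on how an alpha chain is read.

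The 9 genes were taken from 24530 gene features of the second experiment and 24421 gene symbols of the pilot experiment. They were chosen by name, and the choice was made with the Itga4 values of both diets in hypothalamic conventional T cells (Tconv) in view. Those diet values of Itga4 and of its partners are therefore given as a description, with no test. Levels are CPM (reads of a gene scaled to the library total) summed over the RefSeq transcripts of a gene, and levels of different genes were compared only as TPM, which also correct for transcript length. A difference was called when its adjusted p in the quasi-likelihood test of edgeR was below 0.05, and every adjusted p was taken over all genes tested in that comparison.

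The second experiment held 59 libraries in 16 groups of 2 to 4. Activated Tconv (29 libraries, live CD4+ CD25- Foxp3GFP- cells in a CD44hi gate) and regulatory T cells (Tregs, 30 libraries) were sorted from the hypothalamus or from brain, called the rest of the brain here, of Balb/c or C57Bl/6J mice on a standard diet (SD) or a high-fat, high-sugar (HFHS) diet, labelled HFD. Each library was 1 pool of mice, nominally of 5, although the mouse numbers in the labels do not all span 5, and the diet was started at 6 weeks of age in female Balb/c and male C57Bl/6J mice, so strain and sex cannot be told apart. Pools with the same mouse numbers gave hypothalamus and rest of the brain, activated Tconv and Tregs. The label 67_66 of 1 hypothalamic C57Bl/6J SD activated Tconv library may stand for pool 62_66. It was kept as a pool of its own, paired with no other library, in all counts of pools and of fits with 1 pool left out. The length of the diet in this experiment is not given in the sources used here. The pilot held 8 hypothalamic libraries, 1 for each condition. Of these, 4 came from Foxp3GFP Balb/c females after 16 weeks of SD or HFHS diet in pools of 9 (CD4+ CD44- naive T cells, called pilot Tconv here, and CD4+ CD25+ Foxp3GFP+ Tregs), and 4 from leptin-deficient ob/ob or wild-type C57Bl/6J females in pools of 7 (CD4+ CD25- T cells and CD25high cells).

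Total counts ran from 11340062 to 28187003 in activated Tconv of the rest of the brain, from 13196697 to 20538319 in those of the hypothalamus, from 8938478 to 24985601 in Tregs of the rest of the brain and from 1724154 to 38482282 in hypothalamic Tregs. The last group was the thinnest in genes: a median of 4483.5 genes had over 10 counts, against 8823 in Tregs of the rest of the brain and, in activated Tconv, 9614.5 in the hypothalamus and 10789 elsewhere in the brain. Foxp3, the lineage factor of Tregs, was at 241 to 767 CPM in all Treg libraries of the rest of the brain and at 0 to 13.8 CPM in activated Tconv, but at 0.0977 to 862 CPM in hypothalamic Tregs. In 1 hypothalamic Treg library (C57Bl/6J SD, pool 11_15) the T-cell markers summed to only 183 CPM and the endothelial markers to 17900 CPM, and in another (Balb/c SD, pool 32_36) the microglial markers summed to 29200 CPM. Fits and ratios that rest on hypothalamic Tregs were repeated without this pair, while the levels given for hypothalamic Tregs include it. In the pilot, the library labelled wild-type CD25high held 87.4 CPM of T-cell markers, with 4 of 6 markers at 0, and 41900 CPM of microglial markers.

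Every activated Tconv library held 8 of the 9 genes at some level in the rest of the brain, and the order of the levels was led by the beta chains. In hypothalamic activated Tconv the median TPM was 340 for Itgb1, 272 for Itgb2, 251 for Itgb7, 60.1 for Itgal, 41.6 for Itga4, 5.79 for Itga6, 2.82 for Itgav and 2.28 for Itgb3, while Itgb8 had a median of 0. The beta chains at the top were not well separated, since Itgb1 lay above Itgb2 in 12 of 16 libraries and Itgb2 above Itgb7 in 10 of 16. The step from the alpha chains Itgal and Itga4 down to Itga6 was sharp, with Itga4 above Itga6 in 16 of 16 libraries, whereas Itga6 and Itgav, like Itgav and Itgb3, changed places in 6 of 16.

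Tregs of the rest of the brain had another leader. Their median TPM was 476 for Itgb7, 218 for Itgb2 and 181 for Itgb1, and Itgb7 exceeded Itgb2 in 14 of 14 libraries. Itga4 (41.1 TPM) and Itgal (34.0 TPM) could not be ordered, with Itga4 higher in 7 of 14. Itgb8 reached a median of 4.78 TPM there, beside 8.5 TPM for its partner Itgav. In hypothalamic Tregs Itgb7 again came first (334 TPM, above Itgb1 in 13 of 16), but Itgav, Itga6, Itgb3 and Itgb8 all had medians of at most 0.519 TPM and were at or near 0 in many libraries.

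**Figure D1:**
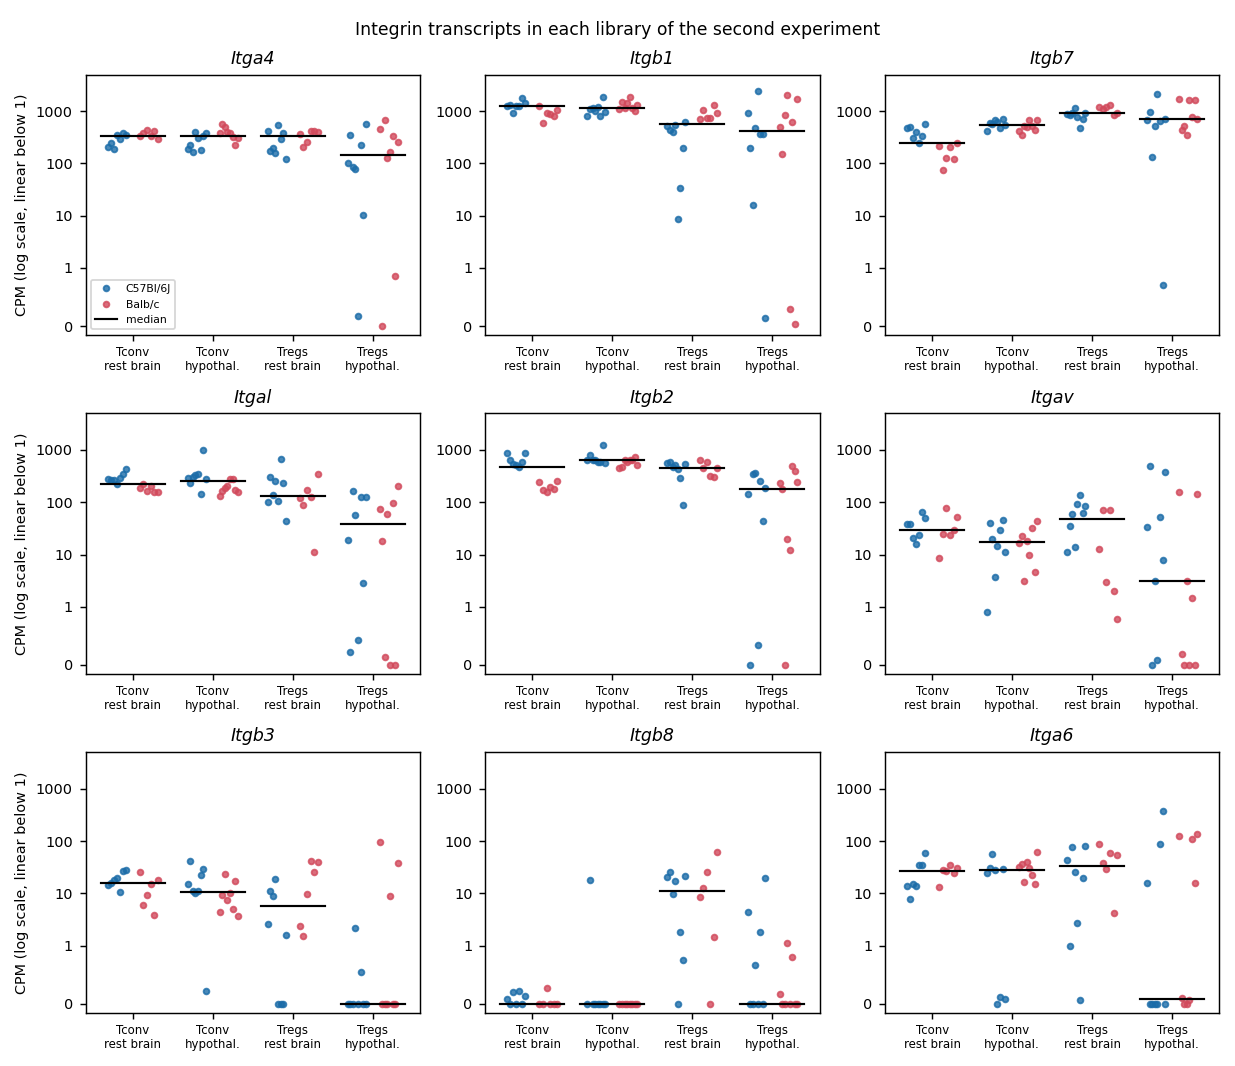
CPM of the 9 integrin genes in each of 59 libraries on a symmetric log axis, by cell type and tissue, coloured by strain, with the median of each group as a line. Itgb7 of Tregs in the rest of the brain (474 to 1320 CPM) lies above most activated Tconv there (76.4 to 574 CPM), and Itgb8 is close to 0 in activated Tconv of the rest of the brain (0 to 0.27 CPM), while 1 hypothalamic activated Tconv library is at 18.3 CPM.

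The promoters of 4 of the genes are shown because Itga4 and its 2 beta partners take different courses below and Itgb8 was found mainly in Tregs. Itgb2 and Itgal, which were also called below, were not found in the promoter table used. Each is a window of 300 bases from RefSeq's promoter table on GRCm38.p6, 250 bases before to 50 after the start that this table uses, which for Itgb7 lies inside the span of the gene given below. The windows are written 5′ to 3′ on the gene's strand, with motif matches in capitals.
Itga4 (chr2:79255176-79255475, plus strand): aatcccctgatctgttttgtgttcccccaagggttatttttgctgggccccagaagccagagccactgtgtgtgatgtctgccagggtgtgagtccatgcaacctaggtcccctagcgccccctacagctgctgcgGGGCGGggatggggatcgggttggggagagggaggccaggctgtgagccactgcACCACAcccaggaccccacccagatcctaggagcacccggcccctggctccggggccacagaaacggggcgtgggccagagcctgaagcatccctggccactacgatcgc
Itgb1 (chr8:128685404-128685703, plus strand): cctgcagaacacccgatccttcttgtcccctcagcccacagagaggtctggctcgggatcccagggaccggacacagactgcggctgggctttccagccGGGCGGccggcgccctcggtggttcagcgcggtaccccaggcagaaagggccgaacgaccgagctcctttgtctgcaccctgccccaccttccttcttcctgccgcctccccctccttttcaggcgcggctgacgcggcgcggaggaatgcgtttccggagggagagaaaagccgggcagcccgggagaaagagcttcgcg
Itgb7 (chr15:102231886-102232185, minus strand): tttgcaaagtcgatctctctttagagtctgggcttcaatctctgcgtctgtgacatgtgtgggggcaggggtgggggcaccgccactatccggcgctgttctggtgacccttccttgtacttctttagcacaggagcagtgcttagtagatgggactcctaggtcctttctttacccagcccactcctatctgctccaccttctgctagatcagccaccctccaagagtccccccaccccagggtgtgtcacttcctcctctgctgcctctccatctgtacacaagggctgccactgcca
Itgb8 (chr12:119238227-119238526, minus strand): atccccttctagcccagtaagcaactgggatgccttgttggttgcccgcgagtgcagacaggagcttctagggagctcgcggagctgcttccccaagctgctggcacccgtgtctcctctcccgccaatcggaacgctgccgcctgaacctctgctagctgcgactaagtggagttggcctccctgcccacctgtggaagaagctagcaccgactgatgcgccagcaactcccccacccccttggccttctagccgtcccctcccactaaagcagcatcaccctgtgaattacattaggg

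Searched on both strands were an ETS motif (CGGAAG), a RUNX motif (TGTGGT), a forkhead motif (GTAAACA), an Sp motif (GGGCGG) and a TATA motif (TATAAA). The Itga4 window held 1 RUNX and 1 Sp match, the Itgb1 window 1 Sp match, and the Itgb7 and Itgb8 windows none, while 16.8% of 32851 promoter windows held the RUNX motif, 35.7% the Sp motif, 16.9% the ETS motif, 3.65% the forkhead motif and 13.6% the TATA motif. The windows differed in base composition. Itgb1 had 67.3% GC and 27 CpG, Itga4 64.3% and 10, Itgb8 60.7% and 13, and Itgb7 56.3% and 5, against a median of 52.7% GC and 7 CpG over all windows. Of the other members, Itgav was also found in the promoter table, and Itgal, Itgb2, Itgb3 and Itga6 are named only.

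On the same build, Itga4 lies at chr2:79255426-79333114, Itgb1 at chr8:128685654-128733579, Itgb7 at chr15:102215994-102233405, Itgal at chr7:127296139-127335137, Itgb2 at chr10:77530329-77565708, Itgav at chr2:83722303-83806917, Itgb3 at chr11:104608000-104670476, Itgb8 at chr12:119162803-119238276 and Itga6 at chr2:71786886-71858427.

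The first question was how Itga4 and its partners stood on each diet. In hypothalamic activated Tconv of C57Bl/6J mice, Itga4 was at 221, 395, 301 and 384 CPM on the HFHS diet and at 192, 167, 178 and 333 CPM on SD. In Balb/c mice it was at 388, 565, 503 and 393 CPM on the HFHS diet and at 375, 326, 221 and 303 CPM on SD. All 4 Balb/c HFHS libraries lay above all 4 Balb/c SD libraries, while in C57Bl/6J 1 SD library (333 CPM, pool 11_15) lay inside the HFHS range. The fitted HFHS/SD fold was 1.54 over both strains, 1.54 in Balb/c alone and 1.53 in C57Bl/6J alone.

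The values of the beta partners overlapped between the diets in the same libraries. Itgb1, the common beta1 chain, was at 1100, 989, 1210 and 979 CPM on the HFHS diet and 801, 1160, 812 and 1890 CPM on SD in C57Bl/6J, and at 1100, 1460, 1160 and 1440 CPM on the HFHS diet and 1820, 1170, 1020 and 1300 CPM on SD in Balb/c. The HFHS range was inside the SD range, with a fitted fold of 0.97. Itgb7, the beta7 chain, was at 580, 661, 619 and 546 CPM on the HFHS diet and 419, 565, 485 and 719 CPM on SD in C57Bl/6J, and at 425, 343, 514 and 498 CPM on the HFHS diet and 672, 522, 433 and 686 CPM on SD in Balb/c. Its diets overlapped as well, with a fitted fold of 0.941.

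For the other members the fitted HFHS/SD folds in these cells were 0.758 for Itgal, 0.863 for Itgb2, 0.714 for Itgav, 1.04 for Itgb3 and 0.734 for Itga6. Each of these 5 genes overlapped between the diets. Itgb8 was at 0 in 15 of 16 libraries and was not tested. Over all genes 0% of 10875 were called for diet in these cells, from which nothing is read about the members.

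**Figure D2:**
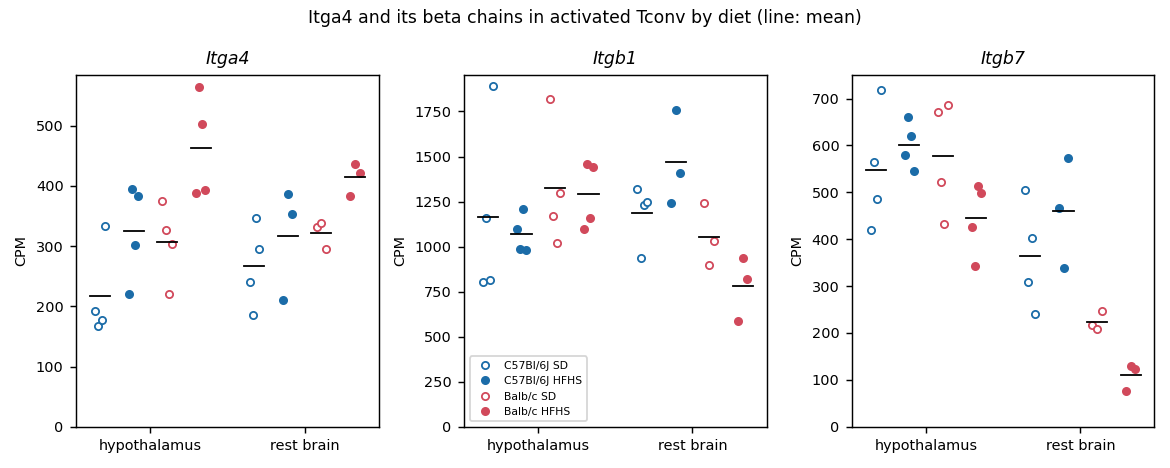
CPM of Itga4, Itgb1 and Itgb7 in activated Tconv by tissue, strain and diet, with each point 1 pool of mice and the line the group mean. Itga4 points on the HFHS diet lie mostly above those on SD, with 388 to 565 CPM against 221 to 375 CPM in the hypothalamus of Balb/c mice, whereas those of Itgb1 and Itgb7 overlap in the hypothalamus.

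In activated Tconv of the rest of the brain, the diet effect on Itga4 did not pass the test. Itga4 was at 210, 387 and 353 CPM on the HFHS diet against 241, 186, 346 and 296 CPM on SD in C57Bl/6J mice, and at 383, 437 and 422 CPM against 331, 338 and 296 CPM in Balb/c mice. The Balb/c diets did not overlap and the C57Bl/6J diets did. The edgeR log2 fold change was 0.37 ± 0.17 (SE, adjusted p = 1), and 0.57 in Balb/c alone (adjusted p = 0.147). Itgb7 differed between the Balb/c diets in the other direction, at 76.4, 129 and 123 CPM on the HFHS diet against 217, 208 and 246 CPM on SD (log2 fold change −0.82 in Balb/c alone, adjusted p = 0.134), and did not pass the test either. None of the 8 members tested passed, as none of 12287 genes did (0% called).

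Nor did any member pass for diet in Tregs, where 0% of 7715 genes in the hypothalamus and 0% of 11711 genes in the rest of the brain were called. In Tregs of the rest of the brain Itga4 was at 413, 193, 156 and 120 CPM on the HFHS diet and 171, 544, 295 and 388 CPM on SD in C57Bl/6J, and at 366, 210, 251 and 408 CPM on the HFHS diet and 421 and 395 CPM on SD in Balb/c. Its log2 fold change was −0.60 ± 0.32 (edgeR adjusted p = 0.866), with overlapping groups. Hypothalamic Tregs scattered widely, with Itga4 at 0.172 to 350 CPM on the HFHS diet and 0 to 675 CPM on SD, and an adjusted p of 1 for every member also without the 2 libraries that held markers of other cells. At an unadjusted p below 0.05, 406 genes differed by diet in hypothalamic activated Tconv, 591 in those of the rest of the brain, and 213 and 853 in Tregs of the same tissues. DESeq2 called 16, 12, 180 and 327 genes, in the same order, and no member in the last 3 of these comparisons.

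The pilot gave the same diet contrast in other cells, with 1 library a side and therefore no replicate check. Counts on genes were between 99925 and 5334511 per library, so the intervals given here are 95% intervals of counting error only. In pilot Tconv 963 counts of Itga4 with HFHS stood against 3754 with SD, a normalised fold of 0.437 (0.407 to 0.469), which was lower on the HFHS diet, unlike in the activated Tconv of the second experiment. The HFHS library held 14700 CPM of T-cell markers and 82.8 CPM of microglial markers and the SD library 5650 and 440 CPM, and the part of these in the folds was not tested. The gates differed (CD44- or CD44low+int in the pilot, CD44hi in the second experiment). Itgb1 had 515 counts against 12 (fold 73.1, 41.5 to 142) and Itgb7 426 against 760 (fold 0.955, 0.846 to 1.08). In pilot Tregs Itga4 went the other way, with 1834 counts after HFHS feeding against 225 after SD (fold 6.79, 5.91 to 7.83).

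Single pilot libraries held few or no counts of chains that were plentiful in their counterparts. In the SD Treg library Itgb2 had 4 counts and Itga6 and Itgav had 0, against 532, 1186 and 33 counts in the HFHS Treg library, which gives Itga6 at least 329-fold and Itgav at least 9.16-fold higher on the HFHS diet when 0 is set to a floor of 3 counts in that library. Itgb7 (321 against 266 counts, fold 1.0) and Itgal (433 against 372, fold 0.969) were close in the same pair. The SD Treg library held 730 CPM of astrocyte markers (4 of 7 at 0) and 222 CPM of B-cell markers (4 of 5 at 0), against 34.0 and 0 CPM in the HFHS one, and their part in these values was not tested. In CD25- cells, Itgal had 493 counts in ob/ob and 0 in wild-type mice (at least 21.1-fold higher) and Itgb2 968 and 0 (at least 41.4-fold higher), while Itga4 had 1955 and 611 counts (fold 0.41, 0.375 to 0.45). The wild-type library behind these zeros had only 220336 counts on genes. It held 1430 CPM of Treg markers, which goes against its CD25- label, and 540 CPM of astrocyte markers (6 of 7 at 0), where the ob/ob library held 362 and 23.7 CPM, and their part was not tested. Itgb8 was at 0 counts in all 8 pilot libraries. The CD25high pair was not compared further, since the library labelled wild-type CD25high held microglial markers and the ob/ob one only 99925 counts. The library labelled wild-type CD25high had 1733 counts of Itgav, 3610 of Itga6, 501 of Itgb1 and 0 of Itga4.

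The second question was how Tregs and activated Tconv differ in these chains. In the rest of the brain 3 of 9 members were called, against 15.7% of 13956 genes, but Itgb8 entered the test only through Treg libraries, which leaves 2 of the other 8. Itgb7 was 3.28-fold higher in Tregs and Itgb1 was lower at a fold of 0.395. Itga4, the shared alpha chain, did not pass the test.

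Itgb7 ran from 474 to 1320 CPM (median 928) in 14 Treg libraries and from 76.4 to 574 CPM (median 246) in 13 activated Tconv libraries. Only the lowest Treg library (474 CPM) fell inside the range of activated Tconv. The log2 fold change was 1.71 ± 0.21 (edgeR adjusted p = 1.33e-06), with the pool of mice as a block 1.66 (adjusted p = 0.000713), and with the block and a GC offset 1.24 (adjusted p = 0.00297). It was 2.61 in Balb/c alone and 1.02 in C57Bl/6J alone (adjusted p = 0.00356), and the strains are compared below.

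Itgb1 went the other way. It ran from 8.49 to 1300 CPM (median 579) in Tregs and from 587 to 1760 CPM (median 1230) in activated Tconv, with the lowest Treg values (8.49, 33.8 and 199 CPM) in C57Bl/6J mice on SD. These were the libraries of pools 67_71, 11_15 and 01_05. They held 6219, 5438 and 6822 genes with over 10 counts, against 7906 to 9626 in the other Treg libraries of this tissue. The part of these thin libraries in the Itgb1 values was not tested. The log2 fold change was −1.34 ± 0.38 (edgeR adjusted p = 0.0138). This call was lost with the pool as a block (−1.53, adjusted p = 0.0553) and without the libraries of C57Bl/6J pool 01_05 (adjusted p = 0.063). The difference was −2.23 in C57Bl/6J alone (adjusted p = 0.0353) and −0.27 in Balb/c alone (adjusted p = 0.42).

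Itgb8, the beta chain of the TGF-beta-releasing integrin, was at 0 to 60.7 CPM (median 11.1) in Tregs and at 0 to 0.27 CPM in activated Tconv of the rest of the brain. Summed over libraries this was 3134 counts in 14 Treg libraries against 18 counts in 13 activated Tconv libraries, and 12 of 14 Treg libraries held over 10 counts against 0 of 13, where the highest had 5. Itgb8 thus passed the filter on low counts only through Tregs, so its call is no support for a difference and its fitted fold, taken against counts close to 0, is not given. Both diets and strains held Treg libraries above and at or near 0, as C57Bl/6J HFHS libraries were at 20.3, 9.77, 17.5 and 21.7 CPM, C57Bl/6J SD at 25.2, 0, 1.8 and 0.76, Balb/c HFHS at 8.72, 12.5, 26 and 1.44 and Balb/c SD at 0 and 60.7. Its alpha partner Itgav did not pass (log2 fold change 0.14, edgeR adjusted p = 0.927), with 0.783 to 140 CPM in Tregs and 8.7 to 77.1 CPM in activated Tconv.

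The other members did not pass in the rest of the brain. Itga4 was at 120 to 544 CPM (median 330) in Tregs and 186 to 437 CPM (median 338) in activated Tconv, with a log2 fold change of −0.18 ± 0.21 (edgeR adjusted p = 0.674). Itgal was at −0.55 (adjusted p = 0.321), Itgb2 at 0.06 (adjusted p = 0.919), Itgb3 at −0.92 (adjusted p = 0.594) and Itga6 at −0.01 (adjusted p = 0.993). Markers of CD8 T cells moved with this comparison, with 0.0598 to 78.5 CPM (median 21.5) in Tregs and 1.94 to 736 CPM (median 276) in activated Tconv of the rest of the brain, and 0 to 179 CPM (median 0.0688) and 8.69 to 619 CPM (median 218) in the hypothalamus. Endothelial markers moved with it in the hypothalamus, with 0.0295 to 17900 CPM (median 3.15) in Tregs and 17.7 to 217 CPM (median 95.1) in activated Tconv, and hypothalamic Tregs also stood apart from Tregs of the rest of the brain (23.7 to 379 CPM, median 113). The part of these markers in the cell-type and tissue values was not tested.

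Because alpha4 needs a beta chain, the balance of Itgb7 to Itgb1 was taken within each library as a log2 ratio of CPM, in the 55 libraries that held over 10 counts of both. In the rest of the brain it averaged 1.33 ± 1.8 (SD, n = 14) in Tregs and −2.10 ± 0.588 (SD, n = 13) in activated Tconv. The lowest Treg library (−0.608) lay above the highest activated Tconv library (−1.29). The highest Treg ratios were in the libraries thinnest in genes, C57Bl/6J SD pools 67_71 (6.51), 11_15 (3.81) and 01_05 (1.8). Their part in the Treg mean was not tested. The difference was 3.43 (permutation test over libraries, two-sided, adjusted p = 8e-05 over 8 comparisons) and 2.74 with the GC offset of each library taken off (adjusted p = 0.00016), and Tregs were higher in 12 of 12 pools that gave both cell types (exact paired permutation test, adjusted p = 0.00195 over 4 comparisons). In the hypothalamus it averaged 0.418 ± 1.59 (n = 12) in Tregs and −1.15 ± 0.365 (n = 16) in activated Tconv, and 11 of 12 pools had the higher ratio in Tregs (exact paired permutation test, adjusted p = 0.00521). The groups overlapped there, since 1 Treg library reached down to −2.51. The difference was 1.57 (permutation test, adjusted p = 0.000853) and 1.46 without Balb/c pool 32_36 (adjusted p = 0.00109), the one library of the pair with markers of other cells that held enough counts. Corrected by the GC offset it was 0.95 and not called (permutation test, adjusted p = 0.0641). It left out the 4 of 16 hypothalamic Treg libraries with too few counts, and over all libraries, with 1 added to each count, it was 3.35 and not called (adjusted p = 0.0532).

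**Figure D3:**
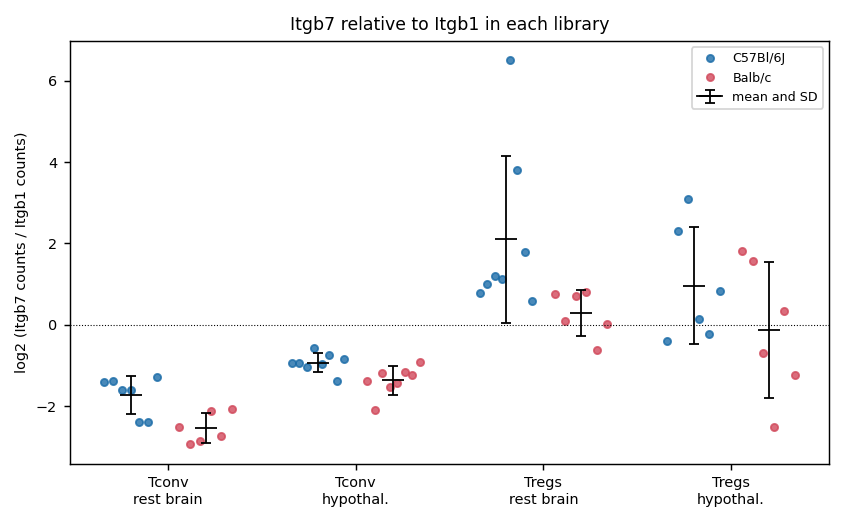
Log2 ratio of Itgb7 to Itgb1 CPM in each library with over 10 counts of both genes, by cell type and tissue, with mean and SD. Tregs of the rest of the brain (−0.608 to 6.51) do not overlap activated Tconv of the same tissue (−2.94 to −1.29).

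In the hypothalamus no member was called between Tregs and activated Tconv, against 13.9% of 11283 genes. At an unadjusted p below 0.05 there were 2534 genes, and DESeq2 called Itgal (adjusted p = 0.0102) and Itgb2 (adjusted p = 0.048). With the GC offset, edgeR also called Itgal (−2.55, adjusted p = 0.0399) and Itgb2 (−2.29, adjusted p = 0.0203), both lower in Tregs, where 14% of all genes were called. Itgb8 passed in DESeq2, with the pool as a block and in 4 of 17 fits with 1 pool left out, but it had over 10 counts in 5 of 16 Treg and 1 of 16 activated Tconv libraries, where the filter needed 4. It entered only through Tregs here too, and its calls are no support for a difference. The members scattered much more among Tregs here, from 0 to 675 CPM for Itga4 (log2 fold change −0.62 ± 0.66, edgeR adjusted p = 0.70) and from 0.713 to 2110 CPM for Itgb7 (0.57, adjusted p = 0.477), and all genes had a median log2 fold change of −0.96. Nearest to the threshold were the LFA-1 chains, with Itgal at 0 to 207 CPM (median 38.4) in Tregs against 129 to 1010 CPM (median 255) in activated Tconv (−2.43, adjusted p = 0.0523) and Itgb2 at 0 to 504 CPM (median 180) against 451 to 1250 CPM (median 630; −1.83, adjusted p = 0.0702). With 1 pool left out, edgeR called Itgal in 5 of 17 fits (without C57Bl/6J pool 72_76, 67_66 or 62_66 or Balb/c pool 26_31 or 11_14, lowest adjusted p = 0.0308), Itgb2 in 3 (C57Bl/6J 77_80, Balb/c 42_46 or 15_21, 0.0421) and Itgb3 in 1 (Balb/c 37_41, 0.042).

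With the pool as a block, 3 members beside Itgb8 were called in the hypothalamus, together with 5543 genes in place of 1563. That is 49.1% of all genes tested, so the share of members called was not above the background. These were Itgal (−4.40, adjusted p = 0.0135), Itgb2 (−2.90, adjusted p = 0.0221) and Itgb3 (−7.26, adjusted p = 0.00365), all lower in Tregs. Of 835 Itgb8 counts in 16 hypothalamic Treg libraries 725 lay in 1 library and 9 libraries had 0, and all 354 counts in activated Tconv lay in 1 library. Summed over libraries Itgb8 was at 3.06 CPM in Tregs and 1.23 CPM in activated Tconv. Without the 2 Treg libraries that held endothelial or microglial markers, Itgb7 was at 0.73 (edgeR adjusted p = 0.0715), Itgal at −2.29 (adjusted p = 0.0679), and Itgb2 at −1.78 (adjusted p = 0.0826), and no member was called. Whether the cell-type differences themselves depended on the tissue was tested as an interaction, in which 0 of 9 members and 9.48% of 14764 genes were called. Without the same pair of Treg libraries no member was called in it either, with Itgb7 at −1.02 (edgeR adjusted p = 0.0653) and Itgb2 at −1.90 (adjusted p = 0.129). In any pool of sorted cells, fewer cells that express a gene and less RNA of it per cell cannot be told apart.

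**Figure D4:**
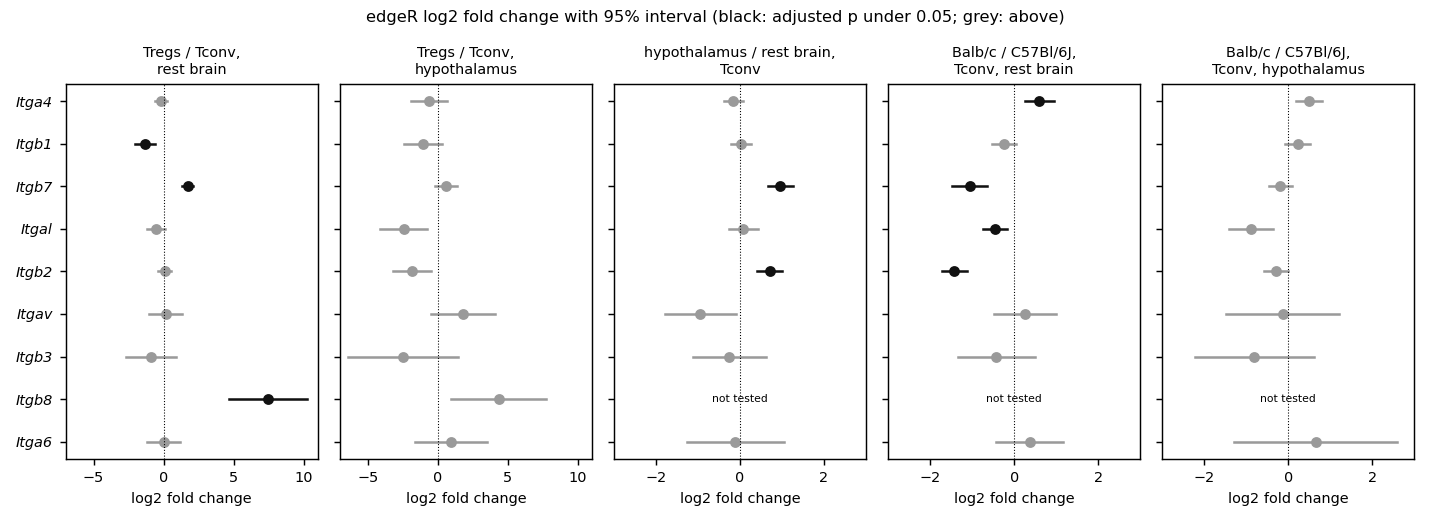
Log2 fold change of each integrin gene from edgeR with its 95% interval in 5 comparisons, with calls at an adjusted p below 0.05 in black. Itgb7 is called in 3 of them, being higher in Tregs (1.71) and in hypothalamic activated Tconv (0.96), and lower in Balb/c activated Tconv of the rest of the brain (−1.06), while Itgb8 entered both cell-type fits only through Treg libraries.

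The third question was whether hypothalamic cells differ from those of the rest of the brain. In activated Tconv 2 of the 8 members tested were called, both higher in the hypothalamus, against 17.4% of 12833 genes. Itgb7 was at 343 to 719 CPM (median 534) in 16 hypothalamic libraries and 76.4 to 574 CPM (median 246) in 13 of the rest of the brain, a fold of 1.94 (log2 0.96 ± 0.15, edgeR adjusted p = 9.87e-05). Itgb2, the beta chain of LFA-1, was at 451 to 1250 CPM (median 630) and 156 to 892 CPM (median 481), a fold of 1.63 (log2 0.71 ± 0.16, adjusted p = 0.00185). Both groups of ranges overlapped, and the low end of the rest of the brain was made of Balb/c libraries.

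With the pool as a block, 115 genes were called in place of 2233. Itgb7 was still called (0.96, adjusted p = 0.0453) and Itgb2 was not (0.84, adjusted p = 0.0716), and with the block and a GC offset together neither was (0.67, adjusted p = 0.0584, and 0.62, adjusted p = 0.0973). In Balb/c alone the differences were 1.41 for Itgb7 and 1.27 for Itgb2, and in C57Bl/6J alone 0.51 (adjusted p = 0.274) and 0.16 (adjusted p = 1). Itga4 did not pass (log2 fold change −0.16 ± 0.12, edgeR adjusted p = 0.439), with 167 to 565 CPM in the hypothalamus against 186 to 437 CPM, nor did Itgb1 (0.03). Itgav was at −0.94 (adjusted p = 0.145), with 0.908 to 45.3 CPM against 8.7 to 77.1 CPM. The ratio of Itgb7 to Itgb1 was higher in the hypothalamus in 9 of 9 pools that gave activated Tconv of both tissues, by 0.92 on the log2 scale (exact paired permutation test, adjusted p = 0.00521). Over all libraries that entered, this difference was 0.95 and, with the GC offset, 0.47 (permutation tests, adjusted p = 8e-05 and 0.00388).

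In Tregs no member was called between the tissues, against 5.6% of 12602 genes. At an unadjusted p below 0.05 there were 2137 genes, DESeq2 called 1 member (Itgb8), and with the pool as a block no gene was called. Itgb8 was at 0 to 19.9 CPM (median 0) in the hypothalamus against 0 to 60.7 CPM (median 11.1). Without the pair with markers of other cells no member was called, with Itgb8 at −4.36 (edgeR adjusted p = 0.166) and Itga4 at −0.38 (adjusted p = 0.874), and the ratio of Itgb7 to Itgb1, which only the library of pool 32_36 entered, differed by −1.02 (permutation test, adjusted p = 0.102) in place of −0.91 (adjusted p = 0.136). The ratio of Itgb7 to Itgb1 was higher in the hypothalamus in 3 of 7 pools (exact paired permutation test, adjusted p = 0.422).

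In activated Tconv of the rest of the brain 4 of the 8 members tested were called between Balb/c females and C57Bl/6J males, against 23.5% of 12287 genes. Itgb2, Itgb7 and Itgal were lower in Balb/c and Itga4 was higher.

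Itgb2 was at 171, 156 and 176 CPM on the HFHS diet and 249, 193 and 256 CPM on SD in Balb/c mice, and at 861, 591 and 892 CPM and 654, 530, 512 and 481 CPM in C57Bl/6J mice. The strains did not overlap. The log2 fold change was −1.42 ± 0.16 (edgeR adjusted p = 1.01e-05), a fold of 0.375.

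Itgb7 was at 76.4 to 246 CPM (median 168) in Balb/c and 241 to 574 CPM (median 403) in C57Bl/6J, so that only the highest Balb/c library passed the lowest C57Bl/6J one, and its log2 fold change was −1.06 ± 0.22 (edgeR adjusted p = 0.00142). Itga4 was at 296 to 437 CPM (median 361) in Balb/c and 186 to 387 CPM (median 296) in C57Bl/6J (0.60 ± 0.17, adjusted p = 0.0152). Itgal was at 156 to 225 CPM (median 175) against 220 to 438 CPM (median 281; −0.45 ± 0.15, adjusted p = 0.031). The alpha and beta chains thus stood in opposite order between the strains for alpha4 with beta7 and in the same order for LFA-1.

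GC content moved with these strain values. Genes of over 56% GC had a median log2 fold change of −0.51 in this comparison and those of under 44.9% GC, the other end of the range, one of 0.29, and the transcripts of the members hold 41.1% GC for Itga4, 42.9% for Itgb1, 57.5% for Itgb7, 53.2% for Itgal and 54.9% for Itgb2. With a GC offset for each library, chosen after seeing the data, Itgb2 was at −1.06 (edgeR adjusted p = 4.32e-05) and Itgb7 at −0.61 (adjusted p = 0.0245), while Itga4 (0.27, adjusted p = 0.294) and Itgal (−0.37, adjusted p = 0.0803) were no longer called and Itgb1 was (−0.57, adjusted p = 0.015). Itga4 also lost its call without the Balb/c HFHS pool 16_20 (adjusted p = 0.0536), and Itgal without any of the C57Bl/6J pools 01_05, 77_80 and 33_37 or the Balb/c pool 15_21 (adjusted p up to 0.0815). The same Balb/c libraries held more CD8 T-cell marker signal (276 to 479 CPM, median 348, against 1.94 to 736 CPM, median 39.8, in C57Bl/6J, so that the strains overlapped) and more endothelial marker signal (119 to 259 CPM against 72.3 to 147 CPM), and the part of either in the strain values was not tested.

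No member was called between the strains in activated Tconv of the hypothalamus, against 2.1% of 10875 genes. Itga4 was at 221 to 565 CPM (median 381) in Balb/c and 167 to 395 CPM (median 261) in C57Bl/6J (log2 fold change 0.49 ± 0.16, edgeR adjusted p = 0.149), and Itgal at 129 to 275 CPM (median 181) and 147 to 1010 CPM (median 299; −0.89, adjusted p = 0.121). Both were called by DESeq2 (adjusted p = 0.049 and 0.0143), and each passed in edgeR without 1 C57Bl/6J SD library, Itga4 without pool 11_15 (adjusted p = 0.032) and Itgal without pool 67_66 (adjusted p = 0.0248). The strain difference depended on the tissue for 2 members in an interaction test added after the data were seen, which called 10.4% of 12833 genes. Itgb2 differed by 1.17 ± 0.22 (edgeR adjusted p = 0.001) and Itgb7 by 0.90 ± 0.26 (adjusted p = 0.0207), and with the GC offset Itgb7 was not called (0.56, adjusted p = 0.128) and Itgb1 was (0.80, adjusted p = 0.031).

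Tregs showed no called member between strains, against 0.299% of 11711 genes in the rest of the brain and 0.0389% of 7715 genes in the hypothalamus. Itgb1 stood apart in value, with 694 to 1300 CPM (median 836) in Balb/c Tregs of the rest of the brain and 8.49 to 620 CPM (median 414) in C57Bl/6J. These ranges did not overlap, and the log2 fold change was 1.45 ± 0.56 (edgeR adjusted p = 0.331). The lowest C57Bl/6J values were in the SD libraries thinnest in genes (pools 67_71, 11_15 and 01_05), whose part was not tested. In hypothalamic Tregs the adjusted p was 1 for every member also without the pair with markers of other cells. In a test of whether the cell-type difference depended on strain in the rest of the brain, also added after the data were seen, 4.8% of 13956 genes and 2 members were called, Itgb7 (1.4 ± 0.30, adjusted p = 0.00426) and Itgb2 (1.4 ± 0.36, adjusted p = 0.0189). With the GC offset Itgb7 was at 1.05 (adjusted p = 0.05) and Itgb2 at 1.12 (adjusted p = 0.0732). These interaction tests treat libraries of the same pool of mice as independent.

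The ratio of Itgb7 to Itgb1 was lower in Balb/c than in C57Bl/6J in 3 of 4 comparisons of the strains (exact permutation tests, two-sided, adjusted over the same 8 comparisons), but with the GC offset taken off in 1 of 4. In Tregs of the rest of the brain it averaged 0.299 in Balb/c (n = 6) and 2.1 in C57Bl/6J (n = 8), a difference of −1.81 (exact permutation test, adjusted p = 0.00914). Without the Balb/c HFHS library of pool 15_21 this difference was −1.62 (unadjusted exact p = 0.0514), and with the GC offset it was −1.57 (exact permutation test, adjusted p = 0.0456). The highest C57Bl/6J ratios were those of SD pools 67_71 (6.51), 11_15 (3.81) and 01_05 (1.8). Their libraries held 6219, 5438 and 6822 genes with over 10 counts, the fewest among these Tregs. The part of these thin libraries in the strain difference was not tested. In activated Tconv the averages were −2.54 and −1.72 in the rest of the brain (difference −0.82, exact permutation test, adjusted p = 0.00914) and −1.37 and −0.928 in the hypothalamus (−0.44, adjusted p = 0.0141). Once the GC offset was taken off, the difference in the rest of the brain was −0.01 (exact permutation test, adjusted p = 0.951) and that in the hypothalamus −0.38 (adjusted p = 0.0542), and neither was called. In hypothalamic Tregs the difference of −1.08 did not pass (exact permutation test, adjusted p = 0.249), nor did those of −1.41 without Balb/c pool 32_36 (adjusted p = 0.171) and −1.64 with the GC offset (adjusted p = 0.104).

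Genes that work with integrins were counted from lists chosen for this pathway, with the log2 fold changes of edgeR (adjusted p below 0.05 in each case named) and no GC offset unless stated. A gene that passed the filter on low counts through only one of the groups compared is given by its libraries with over 10 counts, since its call is no support for a difference. Of 13 tested genes that link integrins to the cytoskeleton, 8 were lower and 1 higher in Balb/c activated Tconv of the rest of the brain, where 23.5% of all genes were called, with a median of −1.05 against −0.03 over all genes tested. Among them Parvg was at −2.12 and Pxn, encoding the adaptor paxillin, at −1.71, while Vcl, encoding vinculin, was at 3.36. Of 18 integrin activators and regulators 4 were lower and 1 higher, a share near that background, with a median of −0.2. Fermt3, encoding the kindlin of blood cells, was at −1.86, Rassf5, whose product binds Rap1 in T cells, at −1.10 and Cyth1 at −1.0. Of 15 other T-cell adhesion receptors 3 were lower (Cd6 −1.90, Icam1, which also encodes the ligand of LFA-1, −1.64, and the selectin ligand Selplg −0.88) and none higher, again near the background. Of the genes of latent TGF-beta handling Tgfb1 was called (−1.32), and the ligand gene Mfge8 was over 10 counts in 1 of 6 Balb/c and 7 of 7 C57Bl/6J libraries. With the GC offset, 6 linkers were lower and 1 higher, 6 activators lower and none higher, and 4 adhesion receptors lower and 1 higher, where 21.3% of all genes were called. Of the genes named here Pxn was then no longer called (−1.16, edgeR adjusted p = 0.0683).

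In the hypothalamus against the rest of the brain, 6 of 13 linkers were higher in activated Tconv and none lower, where 17.4% of all genes were called, with a median of 0.59 against −0.11 over all genes. Parvg was at 0.92, Nedd9 at 0.90 and Actn4, encoding an alpha-actinin, at 0.88. Of 18 activators 3 were higher (Fermt3 1.08, Cyth1 0.63 and Tln1, encoding talin, 0.63) and none lower, a share near that background. Of 16 other adhesion receptors 3 were higher and 1 lower, among them Icam1 (1.21), Cd6 (1.01) and Alcam (−3.15), and of 4 genes of latent TGF-beta handling Tgfb1 was higher (0.69). Most of these calls were lost with the pool as a block, which left 1 linker (Actn4, 1.13), 1 activator (Fermt3, 1.28) and 1 adhesion receptor (Icam1, 1.33), each at an edgeR adjusted p of 0.0488, where 0.896% of all genes were called. With the GC offset alone Cyth1 (0.47, edgeR adjusted p = 0.126), Tln1 (0.36, adjusted p = 0.224) and Tgfb1 (0.26, adjusted p = 0.361) were not called, and with the block and the GC offset together none of Actn4, Fermt3 and Icam1 was (edgeR adjusted p = 0.0764, 0.0718 and 0.0701). Itga9, Tgfb3 and Vtn, encoding vitronectin, were over 10 counts in 0, 1 and 1 of 16 hypothalamic libraries and 3, 5 and 3 of 13 of the rest of the brain.

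In Tregs, where 5.6% of all genes were called between the tissues, 2 of 7 other integrin chains and 2 of 9 ligands were, and none of these calls was left with the pool as a block. Itga7 was at −8.46 (−8.20 with the block, edgeR adjusted p = 0.245). Itga2 and Icam4 were over 10 counts in none of the hypothalamic Treg libraries and in 3 and 4 of 14 of the rest of the brain. Vtn was over 10 counts in 2 of 16 hypothalamic Treg libraries and 0 of 14 others, and without the pair with endothelial or microglial markers it no longer passed the filter.

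Between Tregs and activated Tconv of the rest of the brain, 3 of 8 other integrin chains were called, where 15.7% of all genes were. Itgae, whose alphaE chain pairs with beta7 and binds E-cadherin, was at 3.89, higher in Tregs. Itga1, encoding the collagen-binding alpha1 chain, was over 10 counts in 0 of 14 Treg and 13 of 13 activated Tconv libraries, and Itga9 in 0 of 14 and 3 of 13. Of 18 activators 3 were higher (Fermt3 1.37, Cytip 1.27 and Cyth1 1.22) and 1 lower, a share near that background. Of 14 linkers Vasp (0.76) was higher and Vcl (−3.76) lower, and of 9 ligands Mfge8 (3.38) was higher. Of 16 other adhesion receptors 6 were higher in Tregs and 2 lower, with a median of 0.2 against −0.35 over all genes. The lower ones were Jaml (−4.44) and Cd226 (−1.85). The pool as a block left 3 higher and 2 lower, where 12.7% of all genes were called. With the pool as a block, Itgae (4.01, edgeR adjusted p = 0.0549), Cyth1 (1.10, adjusted p = 0.112), Vasp (0.66, adjusted p = 0.185) and Mfge8 (3.23, adjusted p = 0.163) were no longer called.

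Lrrc32, which encodes GARP and presents latent TGF-beta on Tregs, was over 10 counts in 12 of 14 Treg and 1 of 13 activated Tconv libraries of the rest of the brain, and in 8 of 16 and 0 of 16 of the hypothalamus. In the rest of the brain Tgfb3, Vtn and Nid1 were over 10 counts in no Treg library and in 5, 3 and 2 of 13 activated Tconv libraries. In the hypothalamus, where 13.9% of all genes were called, the 3 of 6 other integrin chains and 2 of 5 ligands called all entered through activated Tconv. Of 16 libraries each, Itga1 was over 10 counts in 1 Treg and 16 activated Tconv libraries, Itga2 in 0 and 7, Itga7 in 2 and 6, Cdh1, encoding E-cadherin, in 0 and 14 and Icam4 in 0 and 6.

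The genes most like Itga4 across the 29 activated Tconv libraries were Irf2bp2 (Pearson r = 0.72), Nudcd2 (0.71), Abcg1 (0.69), Tle3 (0.66) and Ccdc58 (0.64), out of 6483 genes whose r had a median of −0.02 and a 95th percentile of 0.42. The partners were less like it, with Itgb1 at 0.18, Itga6 at 0.20, Itgav at 0.06, Itgal at −0.15, Itgb8 at −0.20, Itgb3 at −0.33, Itgb7 at −0.38 and Itgb2 at −0.48. These are correlations over libraries of 8 groups, which share tissue, strain and base composition, and they are a description.

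Itga6 was counted on 2 transcripts, and in single libraries Salmon tended to assign the counts to only 1 of them. They differ by exon 25 of 26 (chr2:71853534-71853663 of GRCm38, 130 bases), which gives the A form of the alpha6 cytoplasmic tail. Its coding part (chr2:71853534-71853638, 105 bases, plus strand) is shown because it is the sequence that decides between the forms.
Itga6 exon: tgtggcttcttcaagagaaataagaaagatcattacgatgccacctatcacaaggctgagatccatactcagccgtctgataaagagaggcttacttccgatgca
In hypothalamic activated Tconv, the transcript with this exon made over 99% of Itga6 counts in 11 of 13 libraries with over 10 counts, and under 1% in 1. In activated Tconv of the rest of the brain it made over 99% in 7 of 13 and under 1% in 4 of 13. Tregs of the rest of the brain split 8 and 3 of 13, and hypothalamic Tregs 2 and 4 of 7. Few libraries lay between. These are Salmon's estimates of how the reads divide between the 2 transcripts, and reads over the exon itself were not counted. Whether a library held a single form was therefore not tested.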

How the data were processed

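CD4+ T cells sorted from mouse brain were profiled by RNA sequencing in 59 libraries of the second experiment and 8 of the pilot. For the second experiment the authors ran nf-core/rnaseq 3.16 on paired-end reads of 100 bases and quantified RefSeq transcripts with Salmon on mm10, and they deposited estimated counts and TPM for each transcript. For the pilot the authors mapped single-end reads of 75 bases to mm10 with BWA-mem and deposited raw counts per gene symbol from HTSeq-count. The versions of these mappers are not given in the sources used here. Rows that are not genes were left out, so that 0.39 to 17.1% of the pilot reads were counted on genes.

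Of 35034 transcript names, 34652 (98.9%) were matched to a gene, and estimated counts were summed per gene and rounded. A gene was fitted where the number of libraries with over 10 counts of it reached the size of the smallest group, and fits were made with edgeR 4.0.16 (quasi-likelihood test, TMM, Benjamini-Hochberg adjustment) in R 4.3.3, with a term for each strain and diet. SE are those of the fitted log2 fold changes. Alternatives used the size factors and Wald test of DESeq2 1.42.0, limma 3.58.1 (voom with quality weights), no filter, each strain alone, each pool left out, the pool as a block and a GC offset from 20 bins, the last chosen after seeing the data. The mouse numbers in the labels show that libraries of the same pool come from the same mice, although over 4071 genes the deviations of same-pool libraries from their group means were correlated by only −0.19 to 0.1. Ratios were compared by permutation tests in scipy 1.17.1, two-sided, exact or with 100000 resamples, and repeated with the GC offset, chosen after seeing the data. Pilot folds used size factors over all 8 libraries. The fitting code was tested on simulated data. Replicates are separate pools of mice, and p-values of the strain and diet tests measure the spread between these pools. The main cell-type and tissue fits, and the permutation tests over libraries for them, treat libraries of the same pool as independent. Only the fits with the pool as a block and the paired permutation tests use the pairing.

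The members, the lists of related genes and the tests were chosen with earlier results of these data known. All 9 members were named throughout, and of the other lists up to 3 genes with the largest change among those called between cell types, tissues or strains, except that 1 item of these lists is not reported here. The interactions are given for the members. The lists were also fitted with the pool as a block, with the GC offset and without the 2 Treg libraries that held markers of other cells, chosen after seeing the data. Of likeness to Itga4, the 5 genes of highest correlation among those with a mean of at least 20 CPM were named.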

Additional observations from a re-analysis of the deposited data

Results flagged for a closer look

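The values of 1 gene in 1 group of 4 libraries were examined in 102 cases, and in 18 of them 1 library lay far from the others of its group, where chance gives about 1 in 20. In hypothalamic Tregs these were pool 62_66 of C57Bl/6J SD for Itga4 (565 CPM, others 10.2 to 101) and Itgav (382 CPM, others 0 to 33.2), pool 06_10 of C57Bl/6J HFHS for Itgb1 (2470 CPM, others 194 to 465), pool 77_80 of the same group for Itgav (503 CPM, others 0.0858 to 52.4) and pool 72_76 for Itga6 (89.7 CPM, others 0). Pool 11_15 of C57Bl/6J SD stood apart for Itga6 (378 CPM, others 0 to 15.8) and is the library with endothelial markers at 17900 CPM. In Balb/c hypothalamic Tregs, pool 37_41 on SD stood apart for Itgav (158 CPM, others 0 to 0.195), Itgb3 (95.9 CPM, others 0) and Itga6 (128 CPM, others 0 to 16.1), and pool 11_14 on the HFHS diet for Itgav (145 CPM, others 0 to 3.13).

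In Tregs of the rest of the brain the libraries apart were pool 21_25 of C57Bl/6J HFHS for Itgb7 (1170 CPM, others 888 to 934), pool 62_66 of C57Bl/6J SD for Itgb3 (10.9 CPM, others 0) and Itgb8 (25.2 CPM, others 0 to 1.8), pool 01_05 of the same group for Itga6 (20 CPM, others 0.0598 to 2.71), and pool 16_20 of Balb/c HFHS for Itgav (71.5 CPM, others 2.01 to 13). In hypothalamic activated Tconv pool 11_15 of C57Bl/6J SD was high for Itga4 (333 CPM, others 167 to 192) and Itgb2 (1250 CPM, others 582 to 645), and pool 06_10 of C57Bl/6J HFHS for Itgb8 (18.3 CPM, others 0).

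By the test of an interaction, the strain difference in activated Tconv was not the same in both tissues for Itgb2 (1.17 on the log2 scale, edgeR adjusted p = 0.001) and Itgb7 (0.90, adjusted p = 0.0207), of which Itgb7 was not called with the GC offset (0.56, adjusted p = 0.128). By the same kind of test, the cell-type difference in the rest of the brain was not the same in both strains for Itgb7 (1.4, adjusted p = 0.00426) and Itgb2 (1.4, adjusted p = 0.0189), and neither was called with the GC offset (Itgb7 1.05, adjusted p = 0.05, and Itgb2 1.12, adjusted p = 0.0732).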

How the results depend on the processing

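Of the members called in the report, Itgb7 between Tregs and activated Tconv of the rest of the brain was called in 9 of 9 other fits and Itgb2 and Itgb7 between strains in activated Tconv of the rest of the brain in 5 of 5. Itgb7 between tissues was called in 7 of 9, Itgb1 between the cell types and Itgb2 between tissues in 6 of 9, and Itga4 and Itgal between strains in 4 of 5, all in the same direction. Of the interactions, Itgb2 by strain and tissue was called in 5 of 5 other fits, and Itgb7 by strain and tissue and Itgb7 and Itgb2 by cell type and strain in 4 of 5, lost with the GC offset.

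Numbers of genes called depended on the fit, and the cause was not tested. Between Tregs and activated Tconv of the hypothalamus 1563 genes became 2659 with DESeq2, 7468 with limma, 5543 with the replicate block, 5631 with block and GC offset and 383 in C57Bl/6J alone, and in the rest of the brain 2190 became 5054 without a filter, 3501 with limma and 408 in C57Bl/6J alone. Between tissues 706 genes in Tregs became 1848 with DESeq2, 4298 with limma, 1222 without the 2 libraries that held markers of other cells and 0 with the replicate block, with block and GC offset and in C57Bl/6J alone, with a range of 206 to 1561 when 1 pool was left out. In activated Tconv 2233 became 7391 without a filter, 115 with the replicate block, 30 with block and GC offset and 1 in C57Bl/6J alone. Between strains, hypothalamic Tregs gave 250 genes with DESeq2, 16 without a filter, 13 with limma and 1 to 3 with 1 pool left out, Tregs of the rest of the brain 303 with DESeq2 and 123 with limma, and hypothalamic activated Tconv 542 with DESeq2. For diet, hypothalamic Tregs gave 180, 61 and 4 genes with DESeq2, without a filter and with limma and 0 to 10 with 1 pool left out, Tregs of the rest of the brain 327, 5 and 16, activated Tconv of the rest of the brain 12, 9 and 1, and of the hypothalamus 16 with DESeq2. The cell type by tissue interaction gave 2246 without a filter and 5906 with limma, and cell type by strain 1255 with DESeq2.

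Itga4 changed direction where it was not called: between the cell types in the rest of the brain at 0.13 (GC offset) and 0.08 (block and GC offset), between tissues in activated Tconv at 0.06 and 0.08, in hypothalamic Tregs by strain at −0.23 and by diet at 1.63 (limma), with −0.11 to 1.22 and −0.72 to 0.42 when 1 pool was left out. With 1 added to each count over all libraries, the ratio of Itgb7 to Itgb1 differed by 3.35 between the cell types in the hypothalamus (permutation test, adjusted p = 0.0532), by 0.87 between tissues in Tregs, reversed from −0.91, and by 2.15 between strains in hypothalamic Tregs, reversed from −1.08, and for strain in Tregs of the rest of the brain it ranged from −2.02 to −1.18 with 1 pool left out. With the GC offset it was 0.95 between the cell types in the hypothalamus and −0.38 and −0.01 between strains in activated Tconv of the hypothalamus and of the rest of the brain, and these calls were lost. The replicate block for this ratio, as sign flips within pools, changed no call, and for single members it changed no call other than those of Itgb1, Itgb2, Itgal, Itgb3 and Itgb8 given in the report. In the pilot, Itgb7 reversed in Tconv (0.07 and 0.04 with size factors of 2 libraries and TMM) and Tregs (−0.45 as CPM). In the CD25high pair, which was not compared, the values as CPM were 1.75 for Itga6 (−0.02 with size factors) and 1.52 for Itgb3, where ob/ob had 0 counts and the floor of 3 counts was 30.0 CPM against 10.5 CPM, so that no direction can be read. Hypothalamic Tregs had fewer genes with over 10 counts than Tregs of the rest of the brain (medians 4483.5 and 8823) at total counts of 15027202 and 17377170 (medians), and a count of 0 there or in the pilot does not show that a gene was not expressed.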
